A study of Mus musculus with 8 samples.

Results

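The regions described are 463 SMAD4 peaks of the E9.5 list that had no counterpart at E10.5 and lay close to the start of a gene. A peak was taken when it overlapped no E10.5 peak by as much as 1 bp and its centre lay within 5 kb of the nearest 5′ end of an annotated transcript (GENCODE vM1, mouse genome build mm9). They made up 22.3% of the 2073 E9.5 peaks, 27.5% of the 1686 E9.5 peaks without an E10.5 overlap and 61.7% of the 750 E9.5 peaks near a start. These regions were thus chosen by the peak positions in both lists and by the distance to a start, and neither the absence of an overlapping E10.5 peak nor the nearness to a start is a result.

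SMAD4 is the common partner of the receptor-activated SMAD proteins. BMP, activin and TGF-β ligands activate serine/threonine kinase receptors, which phosphorylate receptor SMADs, and these enter the nucleus together with SMAD4 to bind DNA at short GTCT-containing SMAD boxes or at GC-rich sites. In the early limb bud, BMP signalling is high in the mesenchyme at the onset of outgrowth and is then lowered by secreted antagonists. Inhibitory SMADs and SMURF ubiquitin ligases are targets of the pathway that restrain it.

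The study compared SMAD4 binding at these stages in NMRI mouse embryos homozygous for a Smad4 allele that carries a 3xFLAG epitope tag at the endogenous locus (Smad4Flag), by chromatin immunoprecipitation with the M2 anti-FLAG antibody and sequencing (ChIP-seq). The 8 samples are 2 ChIP and 2 input samples at each stage, about 80 pooled embryos per replicate at E9.5 (E9.75 in the protocol; forelimb buds with attached trunk) and about 100 at E10.5 (fore- and hindlimb buds). All groups carry the tagged allele and none received a treatment. Input DNA was the control of the peak calling, and no immunoprecipitation from untagged embryos was analysed here. Each stage is represented by 1 list of peaks into which both replicates had been merged, so no value has a replicate error, the depth of the libraries is unknown, and stage cannot be told apart from tissue. The p-values below are from two-sided Fisher's exact tests over peaks and the intervals are 95% Wilson intervals. Both describe the spread over peaks of these lists, cover counting error only, and say nothing of the variation between embryos. A region without a peak at E10.5 is not shown to be unbound there.

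The sequences of these regions were of several kinds, shown here by the lines that carry the results below. All are the mm9 reference sequence of the + strand, 5′ to 3′, cut from the 300 bp around the peak centre outside annotated UTRs, with the motif in capitals. Of the 463 peaks, 5 held the 8-base SMAD palindrome GTCTAGAC, and the 4 that could be printed are shown because it is the best-defined SMAD4 site:
Mpv17: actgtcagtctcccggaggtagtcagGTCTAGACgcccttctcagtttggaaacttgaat
Oasl2: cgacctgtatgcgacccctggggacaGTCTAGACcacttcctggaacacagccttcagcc
Fmnl3: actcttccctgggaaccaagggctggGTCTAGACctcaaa
Cenpp: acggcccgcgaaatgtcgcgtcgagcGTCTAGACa
These lie at chr5:31456873-31456932 just upstream of the nearest start of Mpv17, a gene for a mitochondrial inner membrane protein, at chr5:115347688-115347747 near the start of Oasl2, at chr15:99163910-99163949 in an intron of Fmnl3, a formin gene, and at chr13:49748245-49748279 near the start of Cenpp, which encodes a centromere protein. The fifth palindrome lay in the peak at Iqsec3, a gene for a guanine nucleotide exchange factor.

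Peaks over GC-rich starts often held the GC-rich SMAD site GGCGCC, as in the 4 best-scored that could be printed and whose nearest gene is protein-coding:
Pkp4: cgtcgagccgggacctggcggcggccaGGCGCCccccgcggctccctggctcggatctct
Hectd2: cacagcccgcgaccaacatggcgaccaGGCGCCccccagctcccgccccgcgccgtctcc
Prkd1: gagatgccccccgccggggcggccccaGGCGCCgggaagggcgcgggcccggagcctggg
Rasa2: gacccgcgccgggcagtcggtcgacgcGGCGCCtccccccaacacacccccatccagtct
They lie at chr2:58999245-58999304, chr19:36628894-36628953, chr12:51749818-51749877 and chr9:96531623-96531682, each within 1 kb of the start of the gene it is named after. Pkp4 encodes a plakophilin of cell junctions, Hectd2 a HECT-type ubiquitin ligase, Prkd1 protein kinase D1 and Rasa2 a RAS GTPase-activating protein.

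SMAD boxes, CAGAC or its reverse complement GTCTG, lay in 59.8% of the windows, sometimes many in a row. The window at Slc5a11 had the most boxes of all 463, and those at Eif2c1 and March10 are shown as peaks with several boxes and higher scores:
Slc5a11: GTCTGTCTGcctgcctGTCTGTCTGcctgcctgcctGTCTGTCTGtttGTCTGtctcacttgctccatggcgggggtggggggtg
Eif2c1: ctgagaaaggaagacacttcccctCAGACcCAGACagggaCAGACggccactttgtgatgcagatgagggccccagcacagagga
March10: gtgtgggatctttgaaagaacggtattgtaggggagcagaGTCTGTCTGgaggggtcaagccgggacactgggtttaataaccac
The 300 bp window at Slc5a11 held 20 boxes, 7 of them in the printed stretch (chr7:130378961-130379045), in a peak with a score of 41.6. Boxes that share a base, as in GTCTGTCTG, were each counted. Most of these lie in a run of repeated GTCT and GCCT units, and windows of repeats were not set aside. The stretches at Eif2c1 (chr4:126143169-126143253), which encodes argonaute 1, and March10 (chr11:105313057-105313141) had scattered or paired boxes, with peak scores of 81.8 and 72.3.

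SMAD boxes also lay in some of the peaks at genes of the SMAD pathway and of the Hox clusters, shown because these genes are described below:
Smurf1: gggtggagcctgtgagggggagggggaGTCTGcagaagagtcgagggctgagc
Smad6: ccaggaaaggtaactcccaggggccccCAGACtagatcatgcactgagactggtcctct
Bmp4: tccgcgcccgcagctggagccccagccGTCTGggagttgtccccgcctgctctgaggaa
Hoxb4: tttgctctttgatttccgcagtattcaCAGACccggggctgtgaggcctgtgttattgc
Hoxa2: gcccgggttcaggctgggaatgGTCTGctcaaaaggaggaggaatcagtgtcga
Hoxb1: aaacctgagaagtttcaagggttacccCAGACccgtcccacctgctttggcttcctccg
Hoxa3: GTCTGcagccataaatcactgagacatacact
They lie at chr5:145725994-145726046, chr9:63865494-63865552, chr14:47007130-47007188, chr11:96173524-96173582, chr6:52114458-52114511, chr11:96225333-96225391 and chr6:52125558-52125589, in the order given. The nearest start to the peak shown for Bmp4 is that of Gm15222, a processed transcript, and to that shown for Hoxa3 that of 2700086A05Rik, a lincRNA gene. The windows of the peak at Hoxb3 and of the Smad7 peak centred 4.78 kb from its nearest start held no SMAD box. A match to a motif describes the sequence and is not a measured binding site.

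The strongest of these peaks sat almost on top of gene starts. The deposited score, whose unit the lists do not name and which is larger for stronger peaks, ran from 31.6 to 235.6 with a median of 59.1, and 395 of 463 peaks scored 50 or more. Widths ran from 302 to 7413 bp with a median of 1384 bp. The 12 best-scored peaks all had their centre within 1 kb of a start, and 9 of the 12 windows were CpG-island-like, which here means a GC content of at least 50% and at least 0.6 of the CpG dinucleotides that the base composition gives by chance. Of the 41 peaks scored 100 or more, 40 lay within 1 kb of a start and 31 were CpG-island-like.

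The best-scored peak lay 98 bp upstream of Mast2, a microtubule-associated serine/threonine kinase (chr4:116135988-116137785, score 235.6, rank 40 of all E9.5 peaks). Its window had a GC content of 80.0% and held no SMAD box. The peak at Stag1, a subunit of cohesin, followed with a score of 224.1 (chr9:100542981-100545338, 28 bp upstream of the start), and its window held 1 SMAD box and 1 GGCGCC site. Alkbh3, an enzyme of DNA alkylation repair, had a peak with a score of 203.2 that was centred 39 bp downstream of the start, in an annotated UTR (chr2:93850123-93851573). These 3 peaks lay 91.7, 319.2 and 92.2 kb from the nearest E10.5 peak.

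The peak at Mpv17 (chr5:31456110-31457487) scored 193.8 and was not CpG-island-like, and it also lay 4.96 kb from a start of Gtf3c2, a subunit of the RNA polymerase III factor TFIIIC. Its window held the palindrome and 3 SMAD boxes. The peak at Ptpn12, a protein tyrosine phosphatase, scored 190.4, and that at Qk, the RNA-binding protein Quaking, scored 182.2. Pkp4 (169.7), Hectd2 (156.4) and Iqsec3 (155.9) came next in score. Gm16952, a lincRNA gene, had a peak with a score of 154.9 centred 666 bp downstream of its start, in a window below 50% GC. The peaks at Glud1, glutamate dehydrogenase, and Mab21l3 scored 150.7 and 143.8. The windows at Mpv17, Gm16952 and Mab21l3 were the 3 of these 12 that were not CpG-island-like.

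**Figure D1:**
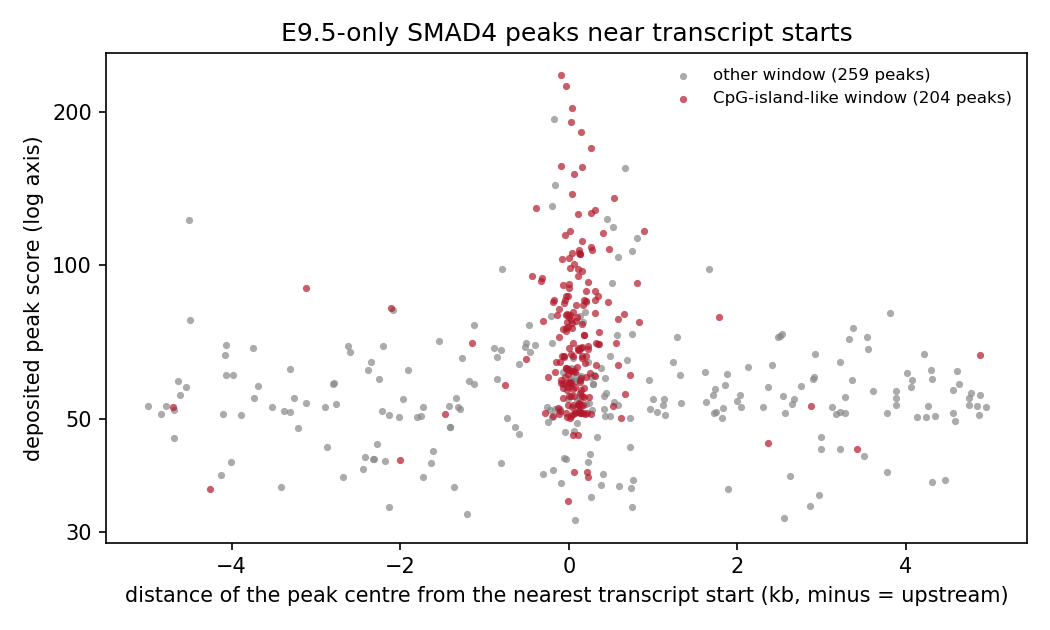
Each point is 1 of the 463 E9.5-only peaks near a transcript start, with the distance of its centre from the start in kb on the x axis (minus is upstream) and its deposited score on a log y axis. Red points are the 204 CpG-island-like windows and grey points the 259 others. The scores of 100 or more gather within 1 kb of the start.

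Base composition and score changed with the distance from the start, while no such change was seen in the share with a SMAD box. The centre lay within 0.1 kb of the start in 100 peaks, from 0.1 to 0.5 kb in 144, from 0.5 to 1 kb in 46, from 1 to 2.5 kb in 70 and from 2.5 to 5 kb in 103. The share of CpG-island-like windows in these classes was 82.0%, 66.7%, 30.4%, 8.57% and 5.83%. The share with a SMAD box was 57.0%, 58.3%, 67.4%, 55.7% and 64.1%, with overlapping intervals. Median scores were 62.3, 64.3 and 64.5 in the 3 classes up to 1 kb and 53.0 and 53.6 beyond it.

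**Figure D2:**
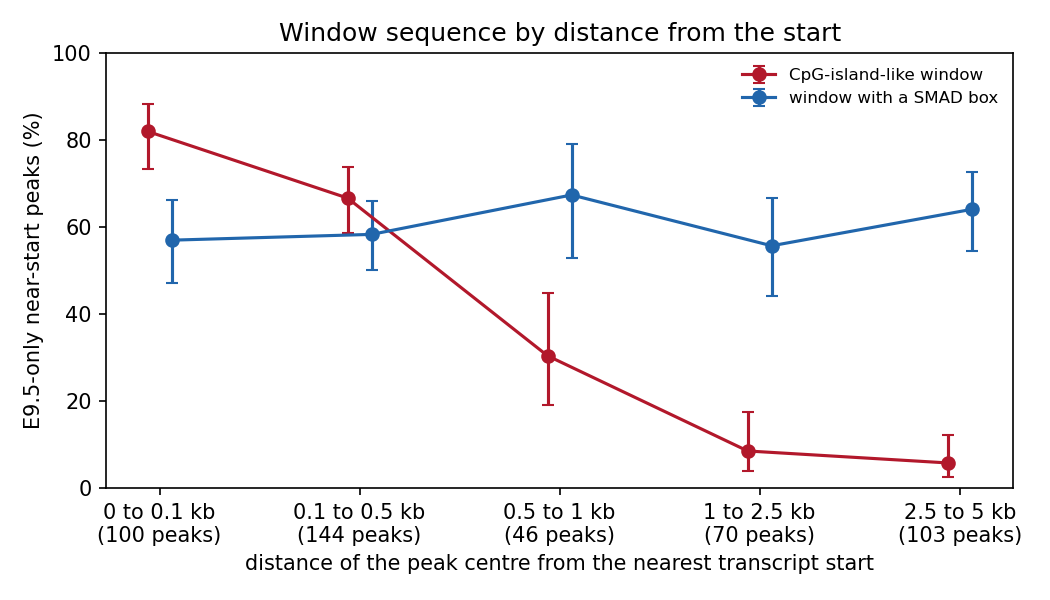
Shares of the E9.5-only near-start peaks whose 300 bp window is CpG-island-like (red) or holds a SMAD box (blue), in percent on the y axis, by distance of the peak centre from the start on the x axis. Points are shares and bars 95% Wilson intervals. The CpG-island-like share falls from 82.0% to 5.83% while the SMAD box share stays between 55.7% and 67.4%.

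Shares on either side of 1 kb are a description with no test, since the rule used this distance and the values were seen first. A CpG-island-like window was found in 192 of 290 peaks within 1 kb (66.2%) and in 12 of 173 farther away (6.94%). A score above the median of these peaks was reached by 61.4% within 1 kb and 30.6% beyond. GGCGCC occurred in 32.1% and 4.05%, and the SMAD box in 59.3% and 60.7%. The nearest gene was protein-coding in 85.5% within 1 kb and in 69.4% beyond.

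Among these peaks, the centre lay within 1 kb of the start in 62.6% (290 of 463), the peak covered the start itself in 60.9% (282 peaks), and the centre was upstream of the start in 37.6%. The 287 shared peaks, the E9.5 peaks near a start that did overlap an E10.5 peak, had their centre within 1 kb in 87.5%, covered the start in 91.3% and were centred upstream in 38.7%. For the 3030 E10.5-only peaks near a start these shares were 71.8%, 85.6% and 34.2%. Median widths were 1384 bp here, 2092 bp in shared and 2682 bp in E10.5-only peaks. Most E10.5-only peaks near starts covered the start, and overlap with an E10.5 peak bears on where the E9.5 peaks of either set lie. Both E9.5 sets together had their centre within 1 kb in 72.1% (541 of 750) and covered the start in 72.5% (544). The shares by position are therefore a description with no test.

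The nearest start belonged to a protein-coding gene in 368 of 463 peaks (79.5%), beside 92.3% of shared peaks and 91.3% of E10.5-only peaks near starts. Among better-scored peaks the difference from shared peaks was -4.72 points and that from E10.5-only peaks -6.98 points. The nearest start was used by the rule, so these shares too are a description with no test. Small RNA genes were nearest in 31 (15 snRNA, 6 miRNA, 4 snoRNA, 4 misc_RNA and 2 rRNA genes), pseudogenes in 23, lincRNA genes in 17 and processed transcripts in 24. The small RNA share was 6.70%, beside 2.09% of shared and 2.48% of E10.5-only peaks near starts and 14.7% of E9.5-only peaks farther than 5 kb from a start. Only 9 of the 31 lay within 1 kb of that small RNA start and 4 were CpG-island-like. Of all 463 centres, 181 lay in introns, 108 between genes, 91 in UTRs, 64 in coding exons and 19 in non-coding exons.

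Across the 463 peaks as a set, base composition stood between that of shared promoter peaks and that of distal peaks, but it differed with distance. CpG-island-like windows made up 44.1% (204 of 463; 95% Wilson interval 39.6 to 48.6%), against 77.7% of shared peaks near starts (adjusted p = 5.32e-20) and 2.29% of the 1223 E9.5-only distal peaks (adjusted p = 1.19e-98, Fisher's exact tests). The rule sets these peaks apart from distal ones by distance to a start. The CpG-island-like share fell with that distance, from 82.0% within 0.1 kb to 5.83% at 2.5 to 5 kb. The test against distal peaks therefore cannot tell a trait of these peaks from nearness to a start. The difference from shared peaks was -33.6 points, and -21.1 points with protein-coding transcript starts only and -17.5 points within 1 kb of a start, where it still passed (adjusted p = 2.66e-08 and 4.82e-06, Fisher's exact tests). Overlap with an E10.5 peak depends on score and width, and the CpG-island-like peaks here had the higher median score (67.6 against 54.7). The test against shared peaks is therefore not independent of the rule on overlap. The share over 22350 windows centred on the 5′ ends of all protein-coding genes was 48.1%. Against the E10.5-only peaks near starts (49.3%) the difference was -5.25 percentage points (Fisher's exact test, adjusted p = 0.0361). That difference lost its call or changed sign under 7 of the alternatives, among them 4.79 points with protein-coding transcript starts only and -3.99 points without peaks nearest a small RNA gene (adjusted p = 0.108 and 0.123, Fisher's exact tests). Among peaks narrower than the E9.5 median width it was -31 points (200 against 176 peaks, Fisher's exact test, adjusted p = 2.6e-09). The median GC content was 55.7%, with 72.0% in shared peaks, 51.7% in distal peaks and 60.2% in E10.5-only peaks. It was 65.5% in the 290 peaks here within 1 kb of a start. In the 173 farther away it was 52%, close to that of distal peaks.

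SMAD boxes were more frequent in the centre windows of these peaks than in those of other peaks near starts. CAGAC on either strand was found in 277 of 463 windows (59.8%), in 47.0% of shared peaks (adjusted p = 0.00477) and in 50.4% of E10.5-only peaks near starts (adjusted p = 0.00139), and in 49.5% of all gene-start windows (Fisher's exact tests, adjusted over 63 tests of 21 motifs). The distal E9.5-only peaks had 64.9% (Fisher's exact test, adjusted p = 0.18). Of the 463 windows, 186 held no box, 178 held 1 and 37 held 3 or more. Split at the median GC content of all windows (56.3%), the difference from shared peaks was 16.2 points in the AT-richer and 11.0 points in the GC-richer windows, and neither passed (Fisher's exact tests, adjusted p = 0.923 and 0.143). The difference from E10.5-only peaks was 3.29 points in the AT-richer and 12.3 points in the GC-richer windows, of which the second passed (Fisher's exact tests, adjusted p = 1 and 0.00964). Among better-scored peaks the excess passed against neither set, with 7.95 points over shared and 7.67 points over E10.5-only peaks (Fisher's exact tests, adjusted p = 0.318 and 0.0798). A window of 300 bp covers a smaller part of the shared and E10.5-only peaks, whose median widths were larger (2092 and 2682 bp against 1384 bp). Among narrower peaks the excess, 22.6 and 12.4 points, also passed against neither set (Fisher's exact tests, adjusted p = 0.305 and 0.111).

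Within CpG-island-like windows, the SMAD box was found in 57.8% of these peaks, 43.5% of shared peaks (adjusted p = 0.00636) and 40.8% of E10.5-only peaks near starts (adjusted p = 1.25e-05, Fisher's exact tests). The 28 CpG-island-like windows of distal E9.5-only peaks lay higher, at 78.6% (adjusted p = 0.0622, Fisher's exact test), a difference of -20.7 points that passed under 4 alternatives, for example -29.5 points among better-scored peaks (Fisher's exact test, adjusted p = 0.0399). All CpG-island-like gene-start windows had 44.0%. In the other windows the share was 61.4% here, 59.4% in shared peaks and 59.7% in E10.5-only peaks (adjusted p = 0.836 and 0.737, Fisher's exact tests), beside 54.6% of such gene-start windows. The excess over both other near-start sets passed in the CpG-island-like windows, but not against shared peaks when only the better-scored peaks were kept (6.75 points, Fisher's exact test, adjusted p = 0.323). Whether it differed between the classes of window was not tested. The tests of this paragraph belong to a family of 14 that were chosen after the values had been seen.

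The 463 windows held GGCGCC in 100 (21.6%), against 41.1% of shared peaks (adjusted p = 2.46e-07) and 3.35% of distal peaks (adjusted p = 6.31e-28, Fisher's exact tests), with 20.1% of E10.5-only peaks (adjusted p = 0.778) and 17.1% of gene-start windows. The difference from E10.5-only peaks, 1.5 points, passed with protein-coding transcript starts only (6.89 points, adjusted p = 0.0381) and in GC-richer windows (11.1 points, adjusted p = 0.0156, Fisher's exact tests). Within 1 kb of a start the difference from shared peaks was -10.6 points and did not pass (adjusted p = 0.056, Fisher's exact test), and in AT-richer and GC-richer windows it was -3.78 and -5.38 points (adjusted p = 1 and 0.93, Fisher's exact tests). The difference from distal peaks was 1.01 and 31.5 points in these windows, of which the second passed (adjusted p = 1 and 1.38e-08, Fisher's exact tests). The GGCGCC share also fell with distance, from 32.1% within 1 kb of a start to 4.05% beyond. Since the rule set distal peaks apart by distance, the tests against them cannot tell GGCGCC from nearness to a start. Among these peaks GGCGCC was in 45.6% of the CpG-island-like and 2.70% of the other windows. This is a description with no test, since the bases of GGCGCC count towards that class. A SMAD box and GGCGCC stood together in 52 windows, and 138 held neither. The palindrome GTCTAGAC occurred in 5 windows (1.08%), against 5 of 3030 E10.5-only windows (0.165%; Fisher's exact test, adjusted p = 0.0276) and 0.130% of gene-start windows. It was in 3 of 287 shared (1.05%) and 14 of 1223 distal windows (1.14%), and neither difference passed (adjusted p = 1 for both, Fisher's exact tests). In 200 bp windows the difference from E10.5-only peaks was 0.333 points and did not pass (adjusted p = 0.4, Fisher's exact test). The composite of GGCGCC followed after 5 bases by GTCT, on either strand, was in 0 of 463 windows, which allows a share of up to 0.648% when 0 is limited at 3 counts and of up to 0.823% by the Wilson interval, and in 4 of 287 shared windows (adjusted p = 0.0833, Fisher's exact test). The longer SMAD core CAGACC, which contains the box, was in 20.7% of windows and in 17.6% of gene-start windows.

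**Figure D3:**
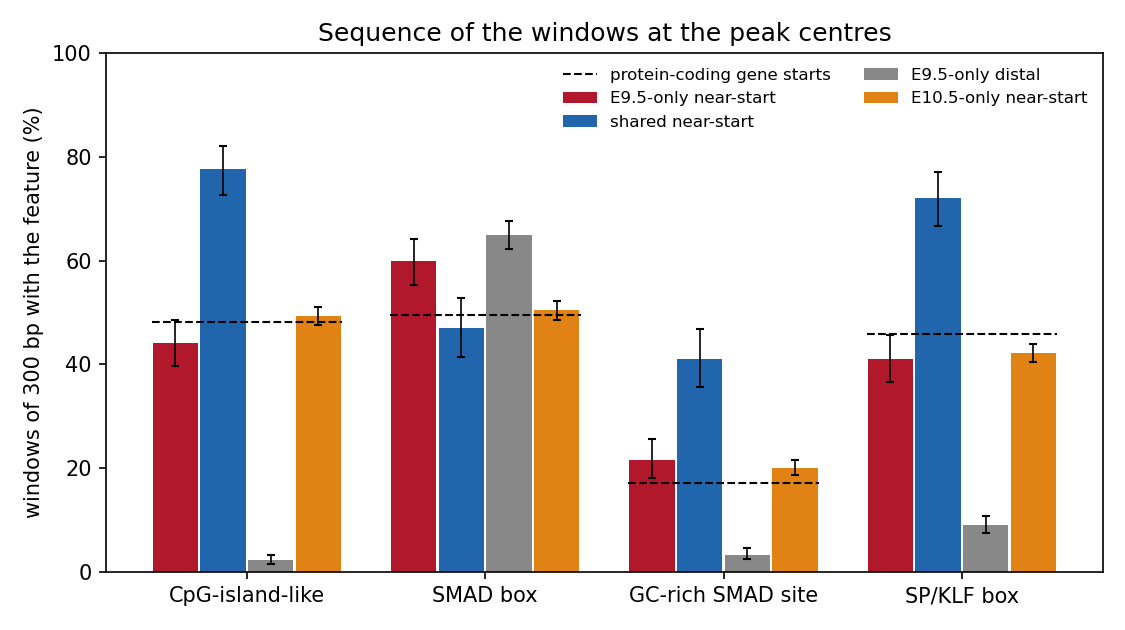
Shares of 300 bp windows in percent (y axis) that are CpG-island-like or hold the SMAD box, the GC-rich SMAD site or the SP/KLF box, for E9.5-only near-start (463), shared near-start (287), E9.5-only distal (1223) and E10.5-only near-start (3030) peaks. Bars are shares with 95% Wilson intervals, and dashed lines give windows at protein-coding gene starts. The shares across the 463 E9.5-only near-start peaks lie between those of shared and distal peaks in all 4 features. Their CpG-island-like share was 66.2% within 1 kb of a start and 6.94% beyond.

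Of the other promoter and factor motifs, each searched on both strands, 7 had a call against shared or distal windows. Distal windows are set apart by the distance rule, so tests against them cannot tell a motif difference from nearness to a start. The SP/KLF box GGGCGG, which can share bases with GGCGCC, was in 41.0% of windows, in 72.1% of shared and 8.99% of distal windows (adjusted p = 1.39e-15 and 3.34e-46, Fisher's exact tests) and in 45.8% of gene-start windows. In AT-richer and GC-richer windows its difference from shared peaks was -13.4 and -6.45 points and did not pass (adjusted p = 0.923 and 0.494), and that from distal peaks was 4.09 and 49.6 points, of which the second passed (adjusted p = 0.923 and 1.48e-16, Fisher's exact tests). The ETS core CCGGAA was in 10.6%, against 4.66% of distal windows (adjusted p = 0.000252, Fisher's exact test) and 18.5% of gene-start windows. The box CCAAT was in 25.7%, against 16.7% of shared windows (adjusted p = 0.0205, Fisher's exact test) and 35.7% of gene-start windows, a call that was lost under 9 alternatives, for example 5.79 points within 1 kb of a start. In comparison with distal windows, the TCF/LEF motif CTTTGA (10.4% and 19.9%), the GATA motif AGATAA (5.18% and 11.7%), the TALE homeobox motif TGACAG (17.5% and 24.1%) and the TATA motif TATAAA (5.62% and 10.2%) were less frequent, with adjusted p-values of 2.17e-05, 0.00031, 0.0205 and 0.0184 by Fisher's exact tests. Gene-start windows held these in 12.7%, 8.46%, 17.9% and 10.8%. Shared windows held the ETS core in 16.7% and the other 4 in 6.27%, 2.09%, 11.8% and 3.14%, and none of these 5 passed against shared windows (Fisher's exact tests, adjusted p from 0.0775 to 0.392). None of the 5 calls against distal windows passed on either side of the median GC content. In AT-richer and GC-richer windows these differences were 2 and 2.68 points for ETS, -5.68 and -8.61 for TCF/LEF, -3.77 and -3.03 for GATA, -3.67 and -0.913 for TALE and -0.4 and -4.81 for TATA. In all, 13 of the 63 motif tests passed. Of these 13, 0 passed in AT-richer windows, 3 in GC-richer windows and 10 in neither. The remaining motifs were found in 0.648% to 6.26% of these windows and in 1.07% to 7.28% of gene-start windows. They were the NRF1 motif GCGCATGC, the YY1 motif AAGATGGC, the E-box CACGTG, the cyclic AMP response element TGACGTCA, the PKNOX1 motif TGACTGAC, the homeobox motif TAATTA, the forkhead motif TGTTTAC, the AP-1 motif TGAGTCA and the ZBTB33 motif TCTCGCGA.

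These peaks scored and spread between the other E9.5 sets. A score above the pooled median was reached by 62.4%, against 45.1% of the E9.5-only distal peaks (Fisher's exact test, adjusted p = 2.2e-10), and a width above the pooled median by 64.8% against 44.3% (Fisher's exact test, adjusted p = 1.13e-13). The shared near-start peaks had a median score of 86.5, and 41.1% of them scored 100 or more, as did 8.86% of the E9.5-only near-start and 2.13% of the distal peaks. Overlap with an E10.5 peak depends on score and width, so the values of the shared peaks are a description with no test. The widest peak lay in an intron of 4933407C03Rik (7413 bp, score 98.3).

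The genes at these peaks included several that transmit or restrain BMP signals. Of 22208 protein-coding genes, 414 (1.86%) had such a peak within 5 kb of a transcript start. A shared E9.5 peak was there for 1.39%, an E10.5-only peak for 14.3% and any E10.5 peak for 15.6% of these genes. These shares are the background for the lists below, and no list was tested. In 9 of the 58 pairs of a listed gene and a peak, another gene had the nearest start, among them Ict1 for Atp5h, Abhd8 for Mrpl34, AI480526 for Setd1b and Gm20422 for Zfp866. The lists were chosen with results of these data known.

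Among ligands and secreted modulators, 2 of 26 genes had a peak, beside 1 with a shared and 6 with an E10.5-only peak. Bmp4, a BMP ligand of the limb bud, had a peak of 4708 bp with a score of 70.2, centred 2.97 kb downstream of its nearest start in a non-coding exon (chr14:47004885-47009592), and 44 bp from the start of Gm15222. Bmper, a secreted BMP-binding protein, had a peak with a score of 100.4 over its start (64 bp, chr9:23026599-23028569), and the nearest E10.5 peak was 1271 kb away. Of the 16 receptor genes, only Acvr2a, a type II receptor for activins and BMPs, had a peak (score 72.8, 175 bp downstream of the start, chr2:48669034-48670574), while 3 had a shared and 3 an E10.5-only peak. The windows at Bmper and Acvr2a were CpG-island-like, with GC contents of 77.3% and 76.0% and 1 GGCGCC site each, but no SMAD box.

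Among SMADs and their feedback genes, 3 of 26 had a peak (11.5%), beside 8 with a shared (30.8%) and 9 with an E10.5-only peak (34.6%). Over all protein-coding genes these shares were 1.86%, 1.39% and 14.3%, and the differences were not tested. Smad6, an inhibitory SMAD, had a peak with a score of 98.0 in an intron, at -0.789 kb from its nearest start (minus is upstream) (chr9:63864432-63866735). It lay 0.924 kb from an E10.5 peak, and within 5 kb of a start Smad6 also had 1 shared E9.5 peak and 1 E10.5 peak with a score of 234.9. Smad7, the other inhibitory SMAD, had 2 of these peaks, of 5867 and 2822 bp and with scores of 39.0 and 56.2, centred 0.404 and 4.78 kb from the nearest start. They almost touch, since one ends at chr18:75537905 and the other starts at chr18:75537934, and may not be separate sites. Smad7 too had 1 shared E9.5 peak and 1 E10.5 peak, with a score of 693.6, and the nearest E10.5 peak was 1.34 and 7.24 kb away. Smurf1, a ubiquitin ligase for SMADs of the BMP pathway, had a peak with a score of 112.9 in an intron (chr5:145724286-145727507, 0.812 kb), and no E10.5 peak at a start. At Smad6 and Smad7 the E9.5-only peaks thus stood beside peaks found in both lists, and at Bmp4, Bmper, Acvr2a and Smurf1 they were without an E10.5 peak within 5 kb of a start.

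Hox genes, which pattern the body axis and the limb, had the highest share of the lists: 6 of 39 genes (15.4%), beside 2 with a shared and 18 with an E10.5-only peak. The peak at Hoxb4 scored 122.4 (chr11:96172799-96174188) and was centred 4.5 kb upstream of the nearest start. At Hoxa3 the score was 107.4 (chr6:52124936-52126478), with the centre 473 bp from the start of 2700086A05Rik and at -3.06 kb from a start of Hoxa3 (minus is upstream). The peak at Hoxa2 scored 92.2 (chr6:52112937-52116277). Hoxb3 scored 62.8 (chr11:96201204-96204074) and Hoxb1 50.6 (chr11:96224999-96225637). Hoxa3 and Hoxb3 also had an E10.5-only peak at a start, and Hoxa2, Hoxb1 and Hoxb4 had no E10.5 peak there. Neighbouring genes of a Hox cluster are not independent of each other.

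Other developmental pathways had 1 or 2 genes each. Among 20 FGF genes these were Fgf18, a ligand, whose peak scored 92.9 (chr11:33046615-33048842), and Il17rd, a feedback inhibitor of FGF signalling, whose peak scored 68.7 (chr14:27878857-27880535). Kif7, a ciliary kinesin of the SHH pathway, had the 1 peak among 17 genes (score 70.4, 1.15 kb upstream, chr7:86859477-86860963). Osr1 was the only gene with a peak among 63 limb and mesenchyme transcription factors (score 36.5, 4.26 kb upstream), of which 27 had an E10.5-only peak. Fzd2, a WNT receptor, had a peak with a score of 50.1 (1 of 52 WNT genes), Notch2 one with 59.9 (1 of 26) and the retinoid receptor gene Rxrg one with 87.1 centred 9 bp from its start (1 of 18). The sterol regulatory factor gene Srebf1 had a peak of 6342 bp with a score of 63.8 (1 of 30 cholesterol genes). None of these 8 genes had an E10.5 peak within 5 kb of a start.

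Chromatin regulators had 7 genes of 99 (7.07%), and 39 with an E10.5-only peak. The 6 best scored were Chd9 (116.6), Chd3 (80.0), Setd1b (66.2), Kdm6a (61.2), Chd2 (60.4) and Dnmt3a (55.7). Chd2, Chd3 and Chd9 are chromodomain helicases, Setd1b a histone H3 lysine methyltransferase, Kdm6a a histone demethylase and Dnmt3a a DNA methyltransferase. The peaks at Chd9 and Kdm6a were centred 12 and 4 bp from the start. Setd1b had an E10.5 peak at a start, and the other 5 named genes had none.

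Genes with Zfp symbols, most of which encode zinc finger proteins, had 14 of 340 (4.12%). The best scored were Zfp777 (82.1), Zfp592 (79.9), Zfp105 (77.6), Zfp212 (73.9), Zfp866 (67.0) and Zfp41 (63.02). Of the lists of general cell functions, splicing factors had 3 of 62 genes (4.84%), Hnrnpa0 (score 85.1), Prpf39 (51.3) and Hnrnpul1 (51.0). Mitochondrial ribosome and respiratory chain genes had 3 of 160 (1.88%), Mrpl34 (76.2), Cox7a2 (53.0) and Atp5h (43.6), and replication and cell cycle genes 3 of 104 (2.88%), Cdc20b (90.2), Cdk14 (51.3) and Rbl2 (47.0). Psmb5, a catalytic subunit of the proteasome, had a peak with a score of 106.8 (1 of 48), Eif2c1, an argonaute gene listed with translation factors by its symbol, one with 81.8 (1 of 65), and Col13a1, a transmembrane collagen, one with 53.1 (1 of 43). Transcription machinery genes had 1 of 98, Gtf3c2.

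Of 1406 olfactory and vomeronasal receptor genes, which act in sensory neurons, 2 (0.142%) had a peak. The peak at Olfr1307 scored 130.6 in a width of 486 bp with a GC content of 32.3%, and that at Olfr901 scored 56.6. Markers of tissues that the dissections could hold were also counted, although a peak is no measure of expression. Tcf15, a transcription factor of the somites, was the 1 of 10 somite and muscle markers with a peak (score 69.2, 525 bp upstream, chr2:151966652-151970892). Neural tube (0 of 9), blood and endothelium (0 of 8), surface ectoderm (0 of 9) and limb mesenchyme markers (0 of 8) had none, as did forkhead (0 of 43), cytoplasmic ribosomal protein (0 of 86), histone (0 of 76) and cadherin-type genes (0 of 64). An E10.5-only peak at a start was found for 2 limb mesenchyme markers. The somite and muscle, neural tube, blood and endothelium and surface ectoderm lists had 1 such gene each. In all, 22 of the 30 lists had at least 1 gene with a peak.

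**Figure D4:**
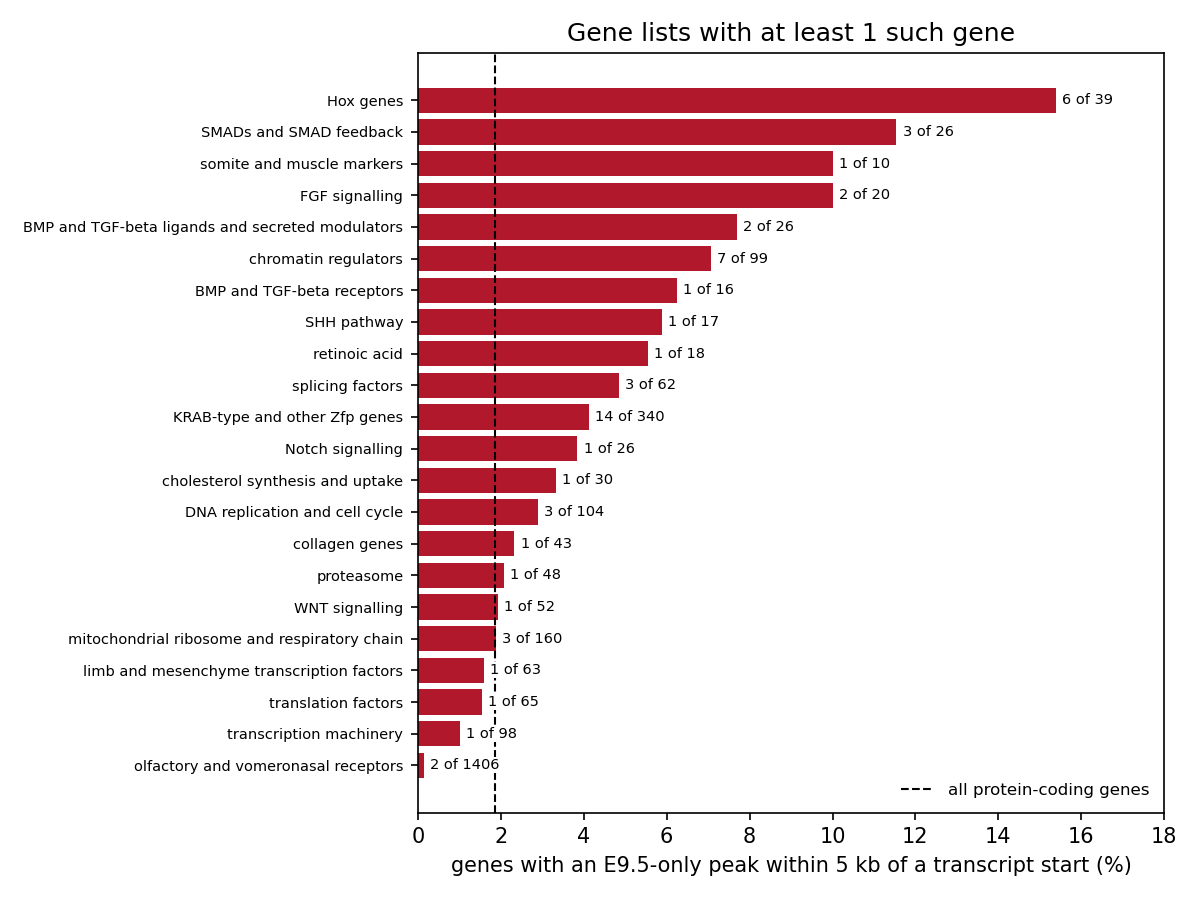
Share of the protein-coding genes of each list (x axis, percent) that have an E9.5-only peak within 5 kb of a transcript start, for the 22 lists with at least 1 such gene. Numbers beside the bars are genes with a peak and genes in the list, and the dashed line is the 1.86% of all protein-coding genes. Hox genes have the highest share and olfactory and vomeronasal receptors the lowest.

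Some genes had several of these peaks, and 11 had more than 1. Slc44a1, a choline transporter gene, had a peak at each of 2 starts that lie apart in the gene (scores 75.2 and 31.6). Nuak1, a kinase related to AMPK, had peaks with scores of 95.2 and 73.3, and Ddc, the aromatic amino acid decarboxylase, peaks with 79.3 and 64.6. Some pairs lie close together and may not be separate sites, as at Ddc, where one peak ends at chr11:11722046 and the other starts at chr11:11722286. Trak1 (71.5 and 55.4), Mtmr14 (72.1 and 51.5), Palld (64.6 and 41.2), Iqsec1 (55.4 and 51.5), C8b (55.6 and 49.0), Dnahc6 (51.0 and 37.4) and Atrn (49.3 and 42.0) also had 2 peaks each, besides Smad7. Peaks at no protein-coding start numbered 76, and 38 peaks lay at starts of 2 or more protein-coding genes.

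Gaps to E10.5 peaks are given as a description, since the rule removed every overlap. The gap to the nearest E10.5 peak ran from 239 bp to 3.81 Mb with a median of 79.7 kb (quartiles 34.2 and 180.2 kb). It was at most 10 kb in 39 peaks (8.42%) and at most 100 kb in 263 (56.8%), and it exceeded 1 Mb in 15. The longest gap, 3807 kb, was at Grik2, a kainate receptor gene, and Kdm6a had one of 2261 kb. The E9.5-only distal peaks had a median gap of 97.5 kb and 6.87% within 10 kb. Of the 414 genes with such a peak, 34 (8.21%) had an E10.5 peak within 5 kb of some start, below the 15.6% of all protein-coding genes, but the rule that excluded overlaps bears on this count.

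**Figure D5:**
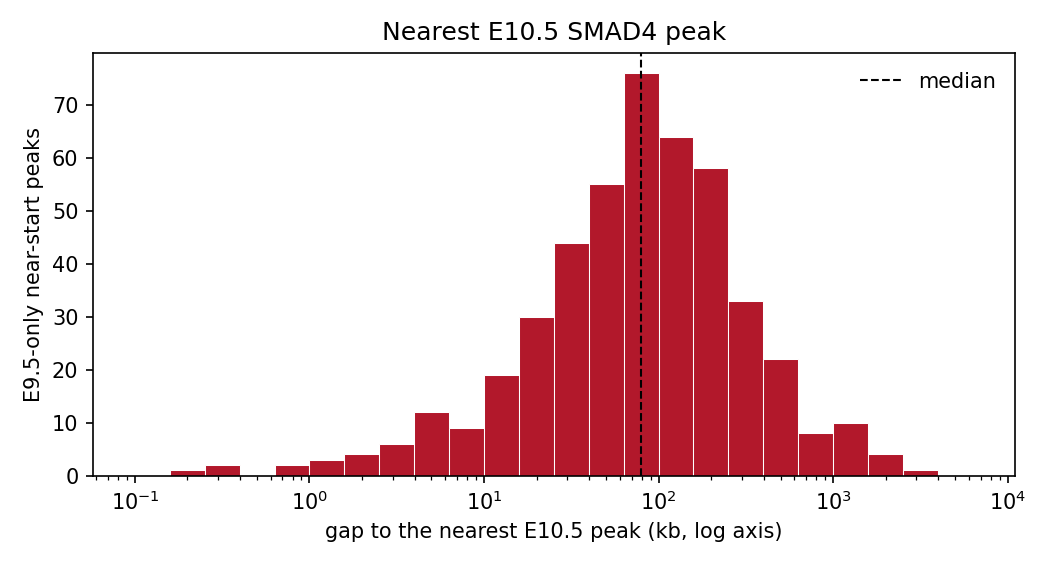
Number of E9.5-only near-start peaks (y axis) by the gap between the peak and the nearest E10.5 peak in kb (log x axis). Bars are counts of the 463 peaks and the dashed line is the median of 79.7 kb. Few peaks lie within 10 kb.

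The peaks at the limits of the rule are given as a description. The 3 peaks just inside 5 kb lay at -4989, 4944 and 4882 bp from the start (minus is upstream) at Abcc12, Sh3gl3 and C8b and scored 53.0, 52.7 and 55.6. Just outside were peaks at 5005, -5028 and -5036 bp at Gm13502, 2310030N02Rik and a 5S_rRNA gene, with scores of 44.8, 52.0 and 44.9. The peaks nearest to an E10.5 peak were those at Hoxb3, A230005M16Rik and Itgam, with gaps of 239, 297 and 355 bp and scores of 62.8, 50.3 and 50.3. On the other side of that limit, the smallest overlaps of shared peaks near starts were 509 and 698 bp, for both peaks at Poc1b (scores 69.4 and 97.2), and 815 bp at Gm13507 (score 371.3). The Poc1b peaks were only 509 and 710 bp wide, so they lay wholly or almost wholly inside an E10.5 peak. The Gm13507 peak was 1613 bp wide.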

How the data were processed

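SMAD4 ChIP-seq was performed in 2 replicates per stage with an input sample each (8 samples). According to the study's methods, the authors trimmed reads, aligned them to mm9 with Bowtie 1.1.0 keeping unique matches, called peaks with MACS 1.4 against the input of the same sample, and merged replicates with MSPC, keeping regions found in both replicates with the best MACS p-value. Bowtie and MACS versions are those of the submitters' processing notes. The 2 deposited lists give positions and a score of the authors whose unit is not named. Scores were not compared between lists. The lists used here hold no summits, so windows were centred on peaks.

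Coordinates are 1-based on mm9 (NCBIM37), with GENCODE vM1 transcripts (95414) and 22208 protein-coding gene symbols. Overlaps, distances, windows of 300 bp, motif matches on both strands (exact letters) and two-sided Fisher's exact tests with Benjamini-Hochberg adjustment within each family were computed in Python (version 3.11.15). SciPy 1.17.1 gave the tests, pysam 0.24.0 read the genome, pandas 2.3.3 and NumPy 2.4.6 held the tables, and Matplotlib 3.10.9 drew the plots. The code was tested on simulated data. Planned tests of the position and nearest transcript of a peak are not reported, since the rule used the nearest start and overlap bears on position. Limits on the score were applied to both lists before the overlap. Members of the set, gene lists, motifs and tests were chosen with earlier results of these data known, and gene lists carry no test. Items named are the 12 best-scored peaks, peaks at listed genes (up to 6 per list), those at both limits of the rule, those with the SMAD palindrome, the widest, and genes with more than 1 peak. An item that this rule names is not reported here. Grik2, the members with the most SMAD boxes and the genes of the printed GGCGCC windows were named after their values were seen. Alternatives were protein-coding starts only, 2.5 kb, an E10.5 gap of at least 1 kb, better-scored lists, scores of 50 or more, other windows, peaks within 1 kb, narrower peaks, and GC strata.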

Additional observations from a re-analysis of the deposited data

How the results depend on the processing

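The 463 peaks became 323 with protein-coding starts, 360 at 2.5 kb, 458 without E10.5 peaks within 1 kb, 310 among the better-scored 50% of each list and 403 at scores of 50 or more, both of which also removed E10.5 peaks and so took in E9.5 peaks that had overlapped one. Every difference in score, width and CpG-island-like windows from distal peaks, and in CpG-island-like windows from shared peaks (-37.3 to -17.5 points), kept its direction and call under the alternatives run. The difference in CpG-island-like windows from E10.5-only peaks, in percentage points, was 4.79 with protein-coding starts, 0.0169 at 2.5 kb, 2.67 among better-scored peaks and 1.44 within 1 kb of a start, reversed in sign. It was -4.76 without E10.5 peaks within 1 kb, -2.05 at scores of 50 or more and -3.99 without peaks nearest a small RNA gene, an alternative added after seeing the data, did not pass in any of the 7, and grew to -31 among narrower peaks, where it passed. The SMAD box excess over shared peaks did not pass among better-scored peaks (7.95), narrower peaks (22.6, with 22 shared peaks left) or in GC-poorer (16.2) and GC-richer windows (11.0), nor that over E10.5-only peaks among better-scored (7.67), narrower (12.4) and GC-poorer (3.29) ones. In 500 bp windows the difference from distal peaks passed (-5.76). The difference in the share within 1 kb of a start from E10.5-only peaks, a description with no test, was -9.21, and -2.66 with protein-coding starts, -1.32 at 2.5 kb and 1.58, reversed, among better-scored peaks. For GGCGCC against E10.5-only peaks the difference turned to -1.71 in 500 bp windows and -6.25 in narrower peaks, and passed at 6.89 with protein-coding starts and 11.1 in GC-richer windows, and the SMAD box difference at the 1 kb split to 3.6 at 2.5 kb. Of the 13 motif calls, 10 passed in neither GC-poorer nor GC-richer windows, and those that passed in the GC-richer were the SMAD box against E10.5-only peaks and GGCGCC and the SP/KLF box against distal peaks. Passing motif tests numbered 21 with 500 bp windows, 4 with narrower peaks and 0 and 5 in GC-poorer and GC-richer windows. The cause of these changes was not tested.

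No paired analysis was possible because the authors merged the replicates before the lists were deposited, and leaving out a replicate was not run for the same reason. The planned restriction to windows with few soft-masked bases was not run, since the genome used is not soft-masked. Depth is unknown, peak calling sets what counts as E9.5-only, and tissue changes with stage.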
